A study of Mus musculus with 18 samples.

Results

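The data described here are the gene-level RNA-seq counts of whole mouse kidneys with or without tubular Cxcl12, 12 h after a bilateral ischemia of 22.5 min. Of the 18 kidneys of the series, 8 form this cohort: 5 with the genotype label Cxcl12 KO and 3 with the label Cxcl12 Control, chosen by that label alone, and every annotated gene was examined. All mice were on the C57BL/6 background and carried Cxcl12 alleles flanked by loxP sites (CXCL12 F/F) together with Pax8rtTA, a doxycycline-dependent activator made in tubular epithelium under the Pax8 promoter. The KO mice also carried TetOcre, so that doxycycline switched on Cre and excised Cxcl12 in tubules, whereas the control mice lacked TetOcre and were given doxycycline as well. They were male, and the other 10 kidneys of the series come from the same design with Myc in place of Cxcl12. Both groups had been operated, so no kidney without ischemia is part of the comparison. The Cre acts in tubular cells, and the endothelial and stromal cells of the same kidneys keep an intact Cxcl12, which limits how far the whole-kidney transcript can drop.

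CXCL12 is a chemokine that signals through the receptor CXCR4 and is bound and removed by ACKR3, and in the kidney it is made by stromal, endothelial, glomerular and some tubular cells. The proximal tubule recovers filtered sodium, phosphate, sulfate, amino acids and organic acids through solute carriers in its apical and basolateral membranes, and the loop of Henle, distal tubule and collecting duct fine-tune salt, calcium, magnesium and water. After ischemia, tubular cells lose transporters and make injury proteins, heat shock proteins and neutrophil-attracting chemokines, and neutrophils enter the tissue within hours.

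The kidneys of the cohort had 12968383 to 26411079 reads on genes. KO kidneys 1 and 2 had 3.93% and 4.06% unmapped reads, whereas the other 6 kidneys had 5.28% to 6.40%, and no control kidney was on the low side, so the genotype cannot be compared within that pair. Values without these 2 kidneys stand beside several results, and the genes that passed in that fit are gathered after the single lists. Of the 15154 genes with enough counts to test, 0 passed an adjusted p of 0.05 by edgeR (0%), whose smallest adjusted p was 0.0617. At an unadjusted p under 0.05 there were 1976 genes (13%), 972 of them higher (6.41%) and 1004 lower (6.63%) in the KO. DESeq2 called 355 of 15376 genes (2.31%; 0.976% higher and 1.33% lower), edgeR over all 18 kidneys 25 of 15903 (0.157%), limma-voom 0, and edgeR without the 2 KO kidneys called 80 of 14948 (0.535%). Because no gene passed, the genes below are given as higher or lower by their values, in CPM (reads on genes scaled by TMM to a common library total). A gene is said not to overlap when its lowest KO kidney exceeded its highest control kidney or the reverse. Of all tested genes, 720 (4.75%) did so on the higher side and 740 (4.88%) on the lower side. In the same set 50.2% had a fold change above 0 and 49.8% below it, and the median log2 fold change was 0.00. These shares are the background for the gene lists.

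Cxcl12 itself was lower in the KO kidneys. It was at 29.0, 36.4, 29.4, 26.3 and 40.9 CPM in KO kidneys 1 to 5 and at 55.4, 60.8 and 45.3 CPM in control kidneys 1 to 3, without overlap. The difference came to -0.73 on the log2 scale (standard error 0.15, adjusted p = 0.0942 in edgeR), and the exact two-sided permutation of the genotype gave p = 0.0179, the smallest that its 56 splits allow. The receptor Cxcr4 was at 6.12 to 12.3 CPM in KO and 4.29 to 6.52 CPM in control kidneys, with a log2 fold change of 0.57, or 0.37 without KO kidney 3. The scavenging receptor Ackr3 had a log2 fold change of -0.33. Both receptors overlapped between the genotypes, and their adjusted p in edgeR was 0.366 and 0.391.

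Among protein-coding genes with a mean of at least 1 CPM, the 12 lower genes with the smallest p were led by Flrt1, a cell-surface adhesion protein, which was at 12.6, 16.5, 14.8, 13.9 and 13.6 CPM in the KO and 24.4, 31.9 and 28.0 CPM in the control kidneys (log2 fold change -0.98, standard error 0.12). Slc13a3, the high-affinity dicarboxylate carrier (chromosome 2 of GRCm38, 165405028 to 165473230), was at 227, 206, 259, 209 and 186 CPM in the KO and at 411, 345 and 392 CPM in the control kidneys (log2 fold change -0.82, standard error 0.11). In both genes every KO kidney lay well below every control kidney. Pdzk1, the PDZ scaffold that holds carriers at the brush border, was at 130.2, 140.3, 138, 120.0 and 124 CPM against 206, 187 and 195 CPM (log2 fold change -0.59, standard error 0.08). Hlf, a transcription factor of the proline and acidic amino acid-rich family that follows the circadian clock, was at 35.1, 36.6, 28.0, 22.1 and 19.2 CPM against 61.7, 65.0 and 65.9 CPM, and had a log2 fold change of -1.18. It was lowest in KO kidneys 4 and 5. A pair of further carriers stood in this group, Slc16a9, a carnitine carrier, at -1.08 and Slc6a13, a GABA and betaine carrier, at -0.69. The others were Dmtn (dematin, an actin-bundling protein, -0.86), Gm11992 (-1.09), Them6 (-0.74), Mgat3 (a glycosyltransferase of N-glycans, -0.69), Ak4 (a mitochondrial adenylate kinase, -0.63) and Gas6 (the ligand of the TAM receptor kinases, -0.60), all as log2 fold changes.

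The 12 higher genes with the smallest p were led by Carhsp1, an RNA-binding cold-shock domain protein that stabilises Tnf mRNA, at 112, 103, 102, 111 and 107 CPM in the KO and 73.0, 79.0 and 70.6 CPM in the control kidneys (log2 fold change 0.53, standard error 0.08). Ampd3, an AMP deaminase, was at 178, 156, 185, 162 and 169.8 CPM against 108, 117 and 117 CPM (log2 fold change 0.57, standard error 0.09). The KO kidneys of both genes lay within a narrow band above the controls. Cd14, the co-receptor for lipopolysaccharide, was at 109, 60.3, 93.7, 158 and 97.3 CPM against 39.8, 38.7 and 41.1 CPM (log2 fold change 1.38, standard error 0.24). Its control kidneys hardly differed, and KO kidney 4 was highest. Pi15, a secreted peptidase inhibitor, was at 34.8 to 47.6 CPM in KO and 13.0 to 24.5 CPM in control kidneys (1.26 on the log2 scale), and Snx10, a sorting nexin of endosomes and osteoclasts, at 26.1 to 58.0 against 14.4 to 18.5 CPM (1.29). The aldo-keto reductases Akr1b7 and Akr1b8, which reduce lipid aldehydes, had log2 fold changes of 1.17 and 0.68. The vascular genes S1pr1, a receptor for sphingosine phosphate, and Apold1, an endothelial early-response gene, were at 0.57 and 0.99, and Zfp52, Pxdc1 and the formin Fmnl2 at 0.83, 0.77 and 0.41. The 24 genes had edgeR adjusted p-values from 0.0617 to 0.0856 and were picked among genes without overlap, so their not overlapping is no finding.

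**Figure D1:**
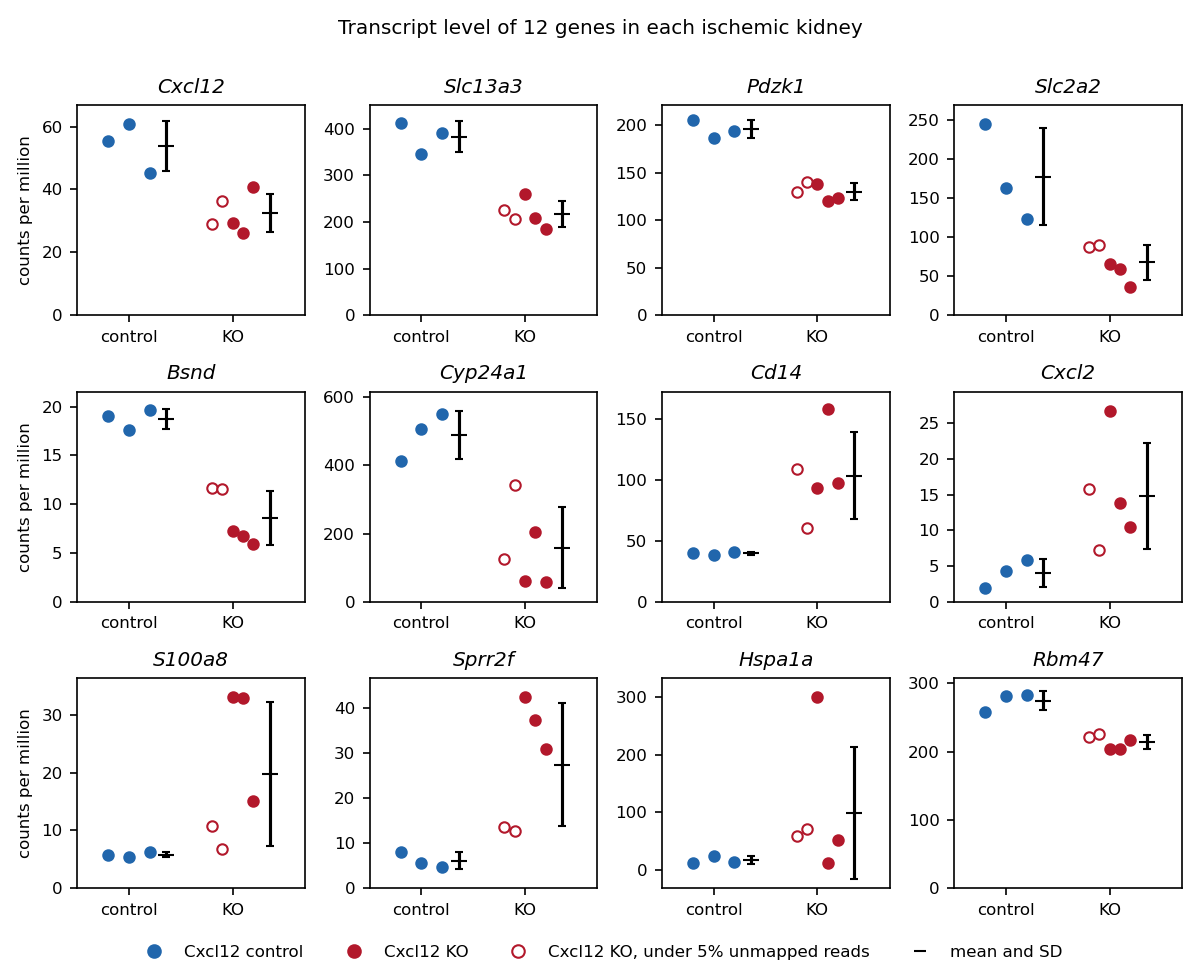
Transcript level in CPM (vertical axes) of 12 genes in each kidney, with control kidneys in blue, KO kidneys in red and the 2 KO kidneys with under 5% unmapped reads as open circles; black marks give the mean and SD. Cxcl12, Slc13a3, Pdzk1, Slc2a2, Bsnd, Cyp24a1 and Rbm47 lay lower in all 5 KO kidneys, Cd14, Cxcl2, S100a8 and Sprr2f lay higher in all 5, and Hspa1a ran from 12.2 to 301 CPM within the KO group.

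Solute carriers of the proximal tubule were mostly lower in the KO kidneys. Of 26 tested carriers on the first list, 23 were lower and 3 higher, and the median log2 fold change was -0.36 against 0.00 for all genes. KO and control kidneys did not overlap for 8 of the 26 on the lower side (30.8%, beside 4.88% of all genes) and for 0 on the higher side (beside 4.75%). The list score, the mean of the members' centred log2 CPM, was 0.05, -0.14, -0.20, -0.30 and -0.06 in KO kidneys 1 to 5 and 0.26, 0.14 and 0.25 in control kidneys 1 to 3, so that every KO kidney lay below every control kidney. DESeq2 called 8 of the 26, all lower, beside 1.33% of all genes. Without KO kidneys 1 and 2, 20 of 25 carriers were lower, with a median of -0.40. In whole tissue, fewer tubular cells and less of a transcript per tubular cell cannot be told apart.

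The list had been drawn up for the apical membrane, but 3 of its members with the smallest p, Slc13a3, Slc6a13 and Slc26a1, are known from the basolateral membrane. Without these 3, 20 of 23 were lower with a median of -0.30. Slc26a1, a sulfate and oxalate exchanger, was at 39.4, 37.5, 38.8, 33.0 and 34.7 CPM in the KO and 55.0, 57.6 and 46.3 CPM in the control kidneys (log2 fold change -0.53). Among apical members, Slc36a1, a proton-coupled amino acid carrier, was at 39.1 to 45.5 against 51.8 to 58.0 CPM (-0.40), and Slc7a9, the light chain of the cystine carrier that is mutated in cystinuria, at 65.2 to 74.3 against 84.3 to 92.3 CPM (-0.34). These carriers differed little between kidneys of a genotype and did not overlap. The most abundant members overlapped. Slc34a1, the main phosphate carrier, averaged 1810.0 ± 136 CPM (SD, n = 5) with the KO against 1983 ± 194 CPM (SD, n = 3) in controls, and Slc6a18, a neutral amino acid carrier, had 768 ± 302 against 931 ± 223 CPM. Slc13a1, the sodium sulfate carrier, had a log2 fold change of -0.50 with a standard error of 0.22, and -0.30 without control kidney 1. The 3 members with a fold change above 0, named here after their values were seen, were the peptide carriers Slc15a2 (0.76) and Slc15a1 (0.26) and the phosphate carrier Slc20a2 (0.07). Slc15a2 ranged from 11.2 to 56.1 CPM within the KO group.

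A second list of carriers, most of them basolateral, had 16 of 22 members lower and a median of -0.15. Slc2a2, the facilitative glucose carrier GLUT2 by which reabsorbed glucose leaves the cell, was at 88.3, 90.2, 65.6, 59.8 and 36.5 CPM in the KO and 246, 164 and 124 CPM in the control kidneys. All KO kidneys lay below the lowest control, KO kidney 5 was lowest and control kidney 1 highest. On the log2 scale the difference was -1.38 (standard error 0.27, adjusted p = 0.0942 in edgeR and 0.0242 when all 18 kidneys shared the fit). Slc7a7, the carrier of cationic amino acids at the basolateral side, was the other member that did not overlap on the lower side (-0.64; 9.09% in all, beside 4.88%). Slc38a2, which imports glutamine and is induced by amino acid shortage and by hypertonicity, was the 1 member that did not overlap on the higher side (4.55%, beside 4.75%), at 537, 439.6, 491, 389 and 555 CPM against 291, 309 and 337 CPM (0.63). The fructose carrier Slc2a5 had a log2 fold change of -0.93 with overlap (-0.57 without control kidney 1), and the abundant bicarbonate carrier Slc4a4 had 908 ± 169 CPM (SD, n = 5) against 997 ± 41.0 CPM (SD, n = 3).

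Of the 32 transporters of organic anions, organic cations and drugs, 28 were lower, with a median of -0.16. On the lower side 2 did not overlap (6.25%, beside 4.88% of all genes). They were Slc51a, a subunit of the basolateral organic solute transporter, at 18.7, 24.4, 23.4, 21.03 and 26.4 CPM against 92.7, 36.4 and 32.6 CPM (-1.24), and Slc47a1, the apical exporter MATE1, at 282 to 353 against 376 to 466 CPM (-0.35). Control kidney 1 was far above the other controls for Slc51a, and without it the log2 fold change was -0.60. The partner subunit Slc51b had a log2 fold change of -0.70 with overlap. The renal anion uptake carrier Slc22a6 (OAT1) and the urate carrier Slc22a12 overlapped, at -0.35 and -0.37, and were at -0.086 and -0.22 without control kidney 3. The median of the list rested on few kidneys: it was -0.08 without KO kidney 3 and -0.04 without control kidney 3.

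The members that take up filtered proteins and handle vitamin D were also mostly lower, 10 of 14, with a median of -0.21. Cyp24a1, the hydroxylase that inactivates vitamin D, was at 125, 342, 60.5, 206 and 58.7 CPM in the KO and 412, 507 and 549 CPM in the control kidneys. Its KO kidneys spread widely, and none reached the lowest control. The log2 fold change was -1.62 (standard error 0.48). Lrp2 (megalin, the endocytic receptor of the brush border) was the other member without overlap (14.3% in all, beside 4.88%), at 756 to 1102 against 1141 to 1216 CPM (-0.28), while its partner Cubn (-0.45) and the vitamin D receptor Vdr (-0.52) overlapped. Dab2, the adaptor that couples megalin to clathrin, was at 0.34 with overlap.

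Transport genes of the loop of Henle, distal tubule and collecting duct were lower in 28 of 37 cases, with a median of -0.15, and 8 did not overlap on the lower side (21.6%, beside 4.88%). Bsnd, barttin, the subunit that carries the ClC-K chloride channels to the membrane, was at 11.7, 11.5, 7.28, 6.71 and 5.96 CPM in the KO and 19.0, 17.6 and 19.6 CPM in the control kidneys (log2 fold change -1.10, standard error 0.21). KO kidneys 3, 4 and 5 had the lowest levels. The claudins of the thick ascending limb, Cldn10 at 22.3 to 42.8 against 49.6 to 72.9 CPM (-0.87) and Cldn19 at 15.6 to 24.8 against 29.4 to 35.0 CPM (-0.67), and the sodium-calcium exchanger Slc8a1 (-0.76) did not overlap either. Slc4a1, the chloride-bicarbonate exchanger of intercalated cells and of red cells, was at 0.496 to 1.10 against 2.05 to 2.65 CPM (-1.43).

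The most abundant genes of the loop overlapped. Umod, uromodulin, the most abundant protein of normal urine, averaged 2746 ± 599 CPM (SD, n = 5) with the KO against 2934 ± 380.0 CPM (SD, n = 3) in controls. Slc12a1, the furosemide-sensitive cotransporter, was at 476, 229.8, 189.8, 121 and 186 CPM against 381, 275 and 472 CPM. KO kidney 1 had the highest level of all 8 and KO kidney 4 the lowest, and its log2 fold change was -0.64 with 5 KO and -1.19 with 3 KO kidneys. The score of the whole list in KO kidney 1 (0.21) was also at the level of the controls (0.20, 0.13 and 0.20), and the other 4 KO kidneys lay below them. For the list, leaving out KO kidneys 1 and 2 moved the median to -0.29, with 17 of 37 members below all controls (9.63% of all genes in that comparison). On the higher side 2 members did not overlap (5.41%, beside 4.75% of all genes), named after their values were seen. They were Trpm6, the magnesium channel of the distal convoluted tubule, at 20.97, 16.5, 29.0, 14.9 and 25.6 CPM against 12.1, 14.3 and 11.9 CPM (0.74), and Slc12a2, the basolateral sodium-potassium-chloride cotransporter, at 0.26.

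The pump and water channel list followed the carriers, with 10 of 13 members lower and a median of -0.26. Atp1b1, a beta subunit of the sodium-potassium ATPase that drives tubular reabsorption, had 1585 ± 322 CPM (SD, n = 5) against 2026 ± 207 CPM (SD, n = 3), a log2 fold change of -0.35, and overlapped. Aqp6, an intracellular aquaporin of intercalated cells (-0.97, or -0.63 without control kidney 1), and Aqp11 (-0.50) did not overlap on the lower side (15.4%, beside 4.88%), nor did the subunit Atp1b3 on the higher side (0.25; 7.69%, beside 4.75%). Without KO kidneys 1 and 2, 6 of 13 lay below all controls (beside 9.63% of all genes). The median was -0.15 without KO kidney 4.

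Ion channels gave no common direction beyond a small shift. Of 75 potassium, chloride, calcium and TRP channel genes, 64 had enough counts, 41 of them lower, and the median was -0.10. On the lower side 7 did not overlap (10.9%, beside 4.88%), among them Kcne1, a potassium channel subunit of the proximal tubule, at 4.11 to 9.59 against 10.6 to 19.0 CPM (-0.97). On the higher side there were 5 (7.81%, beside 4.75%): the intracellular channel proteins Clic1 (0.35) and Clic4 (0.36), Trpv2 (0.54) and, named after their values were seen, Trpc1 (0.21) and Cacna1a (0.40).

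**Figure D2:**
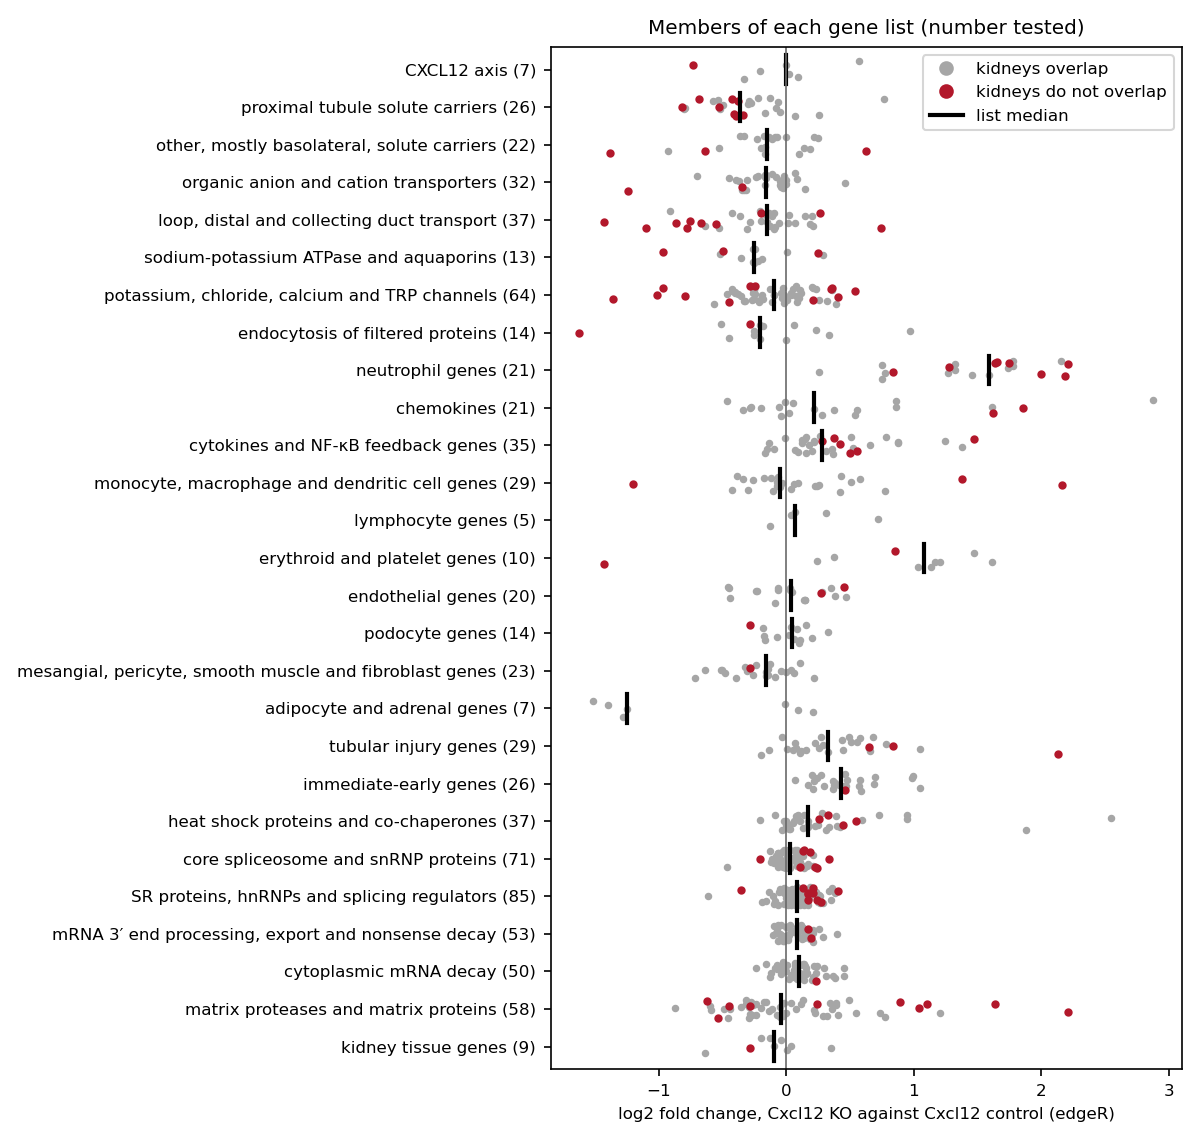
Log2 fold change of every tested member (horizontal axis) of the 27 gene lists (rows, with the number tested), KO against control by edgeR; red points are genes whose KO and control kidneys did not overlap, grey points the others, and black bars the list medians. The carrier and transport lists have medians from -0.36 to -0.10, the 21 tested neutrophil genes lie above 0, and the 4 mRNA processing lists are narrow, with medians from 0.03 to 0.10.

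Neutrophil genes were higher in the KO kidneys. Of 29 genes on the list, 21 had enough counts, all of these had a fold change above 0, and the median was 1.58. A gene with few reads can enter the test through the group in which it is high, so the 17 members with at least 10 counts in every control kidney were also taken alone, and their median was 1.32. S100a8, a subunit of calprotectin, was at 10.8, 6.81, 33.1, 32.8 and 15.1 CPM in the KO and 5.84, 5.36 and 6.27 CPM in the control kidneys (log2 fold change 1.74, standard error 0.49, edgeR adjusted p = 0.189). KO kidneys 3 and 4 were highest, and KO kidney 2 was barely above the highest control. Its partner S100a9 had the same order of KO kidneys apart from the top pair, at 14.8, 12.2, 48.8, 51.4 and 20.7 CPM against 6.46, 10.2 and 11.3 CPM (1.65). The granule proteases Mmp8 (2.21) and Mmp9 (1.63), the decoy receptor Il1r2 (2.18) and Retnlg (2.00) did not overlap either. In all, 8 of the 21 did not overlap (38.1%, beside 4.75%), and DESeq2 called Mmp9, Il1r2 and Lcn2 (3 of 21, beside 0.976%).

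The most abundant member by far was Lcn2 (NGAL), which injured tubules make as well as neutrophils, at 779.5, 716, 1263, 1012 and 937 CPM against 474, 489.9 and 619 CPM (0.84, adjusted p = 0.106 in edgeR). Without it the median over the other 20 was 1.61. Several genes that mark neutrophils gave few reads. Mpo and Elane, the granule enzymes made in the bone marrow, had 0 counts in every kidney. Ly6g, a defining neutrophil marker, had 1 to 8, Camp 0 to 4 and Ltf 3 to 11 counts per kidney. The summed level of the whole list was 794 to 1524 CPM in KO and 532 to 687 CPM in control kidneys, most of it Lcn2, and 78.1 to 261 against 58.1 to 67.8 CPM without Lcn2. The list score was -0.19, -0.39, 1.11, 1.08 and 0.30 in KO kidneys 1 to 5 and -0.70, -0.68 and -0.52 in the control kidneys. Without KO kidneys 1 and 2 the median was 2.00 over the 20 members tested in that fit. Of the 21 members of the main fit, 19 then lay above all controls (beside 9.36% of all genes). Leaving out any 1 kidney gave medians from 1.16 to 1.81. Genes of red cells and platelets were above 0 in 9 of 10 cases, with a median of 1.08. Their list score was -0.14, -0.33, 0.93, 0.89 and -0.09 in KO kidneys 1 to 5 and 0.08, -0.97 and -0.37 in the control kidneys. Only KO kidneys 3 and 4 exceeded control kidney 1. Hbb-bs, an adult beta globin, was at 25.7, 21.8, 80.0, 109.9 and 26.7 CPM in the KO and 41.9, 8.77 and 19.5 CPM in the control kidneys, again highest in KO kidneys 3 and 4. Its log2 fold change was 1.17, and 0.70 without KO kidney 4. Per the study's methods the kidneys were flushed with PBS before freezing, and the part of remaining blood in the neutrophil values was not tested. Within the red cell and platelet list, the platelet integrin Itgb3 did not overlap on the higher side (0.85; 10%, beside 4.75% of all genes). Slc4a1 did not overlap on the lower side (10%, beside 4.88%), and the other 8 overlapped.

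Several chemokines that attract neutrophils were higher, while the chemokine list as a whole had little direction. The list had 21 of 32 members with enough counts, 13 of them above 0, with a median of 0.21. Of the 18 members with at least 10 counts in every control kidney, 12 were above 0 and the median was 0.24. Cxcl2 was at 15.7, 7.19, 26.7, 13.8 and 10.5 CPM in the KO and 1.95, 4.38 and 5.85 CPM in the control kidneys (log2 fold change 1.85, standard error 0.44), and Cxcl5 at 1.91, 2.89, 8.07, 4.16 and 7.01 CPM against 1.39, 1.68 and 1.51 CPM (1.62). These were the 2 members without overlap (9.52%, beside 4.75%), and DESeq2 called them and Cxcl3 (3 of 21, beside 0.976%). Cxcl3 ran from 0.711 to 7.68 CPM in the KO and from 0.325 to 0.724 CPM in the control kidneys (2.88, standard error 0.79), and KO kidney 1 lay within the controls. Cxcl1, the most abundant of the ligands of CXCR2, was at 89.9, 68.3, 80.2, 73.4 and 53.8 CPM against 32.3, 48.9 and 68.3 CPM (0.56, or 0.32 without control kidney 1). Cx3cl1, fractalkine, which binds monocytes, had a log2 fold change of -0.34. The list median depended on single kidneys, at 0.05 without KO kidney 3 and equally without control kidney 3, and 0.08 without KO kidney 4.

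Stretches of the promoters are shown because 3 of these neutrophil chemokines share 1 run of letters and lie in 1 gene cluster on chromosome 5. The 250 bases before the RefSeq start of each gene (GRCm38.p6) were searched on both strands for the NF-kappaB site GGGAATTTCC, with any base allowed as the fifth letter. It is in 112 of 27025 genes with a promoter sequence (0.414%), in 3 of the 23 chemokines with one, and in 5 of 37 genes of the cytokine and NF-kappaB list. In the lines below, capitals mark the match and 10 bases stand on each side, all on the plus strand.
Cxcl1 (chr5:90891164-90891193): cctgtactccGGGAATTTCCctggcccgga
Cxcl2 (chr5:90903792-90903821): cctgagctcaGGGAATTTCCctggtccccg
Cxcl3 (chr5:90786018-90786047): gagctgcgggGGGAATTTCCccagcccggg
Il6 (chr5:30013060-30013089): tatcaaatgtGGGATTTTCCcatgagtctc
Slc6a13 (chr6:121303552-121303581): tccatatttaGGGAATTTCCacacccctgt
The matches end 62, 88, 64, 35 and 68 bases before the start in the order of the lines. Slc6a13 is shown because it carries the same 10 letters as the 3 chemokines and was lower in the KO kidneys (-0.69); its RefSeq start lies inside the Ensembl gene, which begins at position 121300227. Cxcl5 had no match in this window. A match is a run of letters and not a measured binding site. The 3 chemokine matches lie in 1 gene cluster, so they may not be separate cases beside the share of all genes. The same windows were searched for 3 other motifs. The AP-1 site TGANTCA was in 7.819% of all genes and in 5 of 23 tubular injury genes (Anxa2, Cldn4, Plaur, Sprr1a and Sprr2f), the heat shock element (GAACCTTCCGGAA at Hspe1, with any base allowed as the fourth, the fifth, the ninth and the tenth letter) in 0.514% of all genes and in 3 of 30 heat shock genes (Hspd1, Hspe1 and Dnajb6), and the palindromic HNF1 site in 0.011% of all genes and in 0 of 19 proximal tubule carriers. The matches at Hspd1 and Hspe1 are the same bases read on opposite strands, so these genes are not separate cases. The AP-1 site was also in 10 of 37 genes of the cytokine and NF-kappaB list, in 4 of 23 chemokines and in 0 of 21 immediate-early genes. None of the 5 matches printed above overlaps a match to another of the motifs searched.

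Cytokines and the feedback genes of NF-kappaB were above 0 in 30 of 35 tested cases, with a median of 0.28, and 6 did not overlap on the higher side (17.1%, beside 4.75%). Of the 30 members with at least 10 counts in every control kidney, 25 were above 0 and 5 did not overlap on that side. Their median was 0.25. Il6, which carries the promoter match above, was at 2.98, 10.96, 20.8, 13.4 and 15.6 CPM in the KO and 5.57, 4.00 and 4.95 CPM in the control kidneys (1.38, standard error 0.47). KO kidney 1 lay below all controls and the other 4 above them. Ptgs2, the inducible cyclooxygenase, was at 12.7, 28.4, 39.9, 34.9 and 38.6 CPM against 13.0, 14.6 and 11.4 CPM (1.24), and again KO kidney 1 alone did not exceed the controls. The regulators Nfkbiz (0.37), Relb (0.42) and Birc3 (0.50) had smaller folds without overlap. Without KO kidneys 1 and 2, Il6 was at 1.76 and Ptgs2 at 1.53 (edgeR adjusted p = 0.0171 and 0.00689 in that fit).

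Genes of monocytes, macrophages and dendritic cells had no common direction over the 5 KO kidneys. Of 29 tested, 13 were above 0 and the median was -0.05. Without KO kidneys 1 and 2, 19 of 29 were above 0 and the median was 0.05. The list score was -0.24, -0.08, 0.49, 0.22 and -0.24 in KO kidneys 1 to 5 and -0.06, -0.05 and -0.04 in the control kidneys, highest in KO kidneys 3 and 4 as for the neutrophil list. Besides Cd14, Chil3, made by alternatively activated macrophages and also by neutrophils, was the other member without overlap on the higher side (6.90% in all, beside 4.75% of all genes). Chil3 was at 3.69, 2.85, 15.9, 12.7 and 3.97 CPM against 1.73, 2.11 and 1.27 CPM (2.16). Cx3cr1, the fractalkine receptor of resident macrophages, was the 1 without overlap on the lower side (3.45%, beside 4.88%). It was at 0.620 to 2.59 against 2.84 to 4.06 CPM (-1.20), from only 10 to 73 counts per kidney. Of 22 lymphocyte genes only 5 had enough counts, and the summed level of all 22 was at most 14.3 CPM in KO and 9.25 CPM in control kidneys.

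Genes that injured tubules switch on were above 0 in 26 of 29 cases, with a median of 0.33. Sprr2f, a small proline-rich protein of stressed epithelia, was at 13.6, 12.7, 42.4, 37.4 and 30.8 CPM in the KO and 8.18, 5.74 and 4.65 CPM in the control kidneys (log2 fold change 2.13, standard error 0.43, edgeR adjusted p = 0.0942). KO kidneys 1 and 2 were nearest to the controls, and without them the log2 fold change was 2.56. Lcn2, described above, and the transcription factor Sox4 (0.65) were the other 2 members without overlap (10.3% in all, beside 4.75%). The secreted proteins Spp1 (osteopontin, 0.57) and Clu (clusterin, 0.68) and the cell cycle inhibitor Cdkn1a (0.51) were higher with overlap. DESeq2 called 4 of the 29 (Lcn2, Sox4, Spp1 and Sprr2f), beside 0.976% of all genes. Havcr1 (KIM-1), the membrane protein of injured proximal tubules, named after its value was seen, was at 785, 753, 212, 986 and 643 CPM against 552, 672 and 663 CPM. Its KO kidneys lay on both sides of the controls, KO kidney 3 lowest and KO kidney 4 highest, and the log2 fold change was 0.10 (standard error 0.35), turning to -0.04 without KO kidneys 1 and 2.

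All 26 immediate-early genes had a fold change above 0, with a median of 0.43. The list score was 0.07, 0.02, 0.53, -0.19 and 0.37 in KO kidneys 1 to 5 and -0.51, -0.27 and -0.02 in the control kidneys. KO kidney 4 thus lay among the controls, KO kidney 2 was barely above the highest control, and KO kidneys 3 and 5 were highest. Only Fosl2 did not overlap (3.85%, beside 4.75%), at 169.7, 148, 167, 162 and 208 CPM against 111, 117 and 144 CPM (0.46). Fosb (0.99, or 0.61 without KO kidney 3), Maff (0.69), Egr1 (0.57) and Klf6 (0.46), transcription factors induced within minutes of stress, overlapped.

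Heat shock proteins and co-chaperones were above 0 in 31 of 37 cases, with a median of 0.17, and differed much between KO kidneys. Hspa1a, the inducible HSP70, was at 58.0, 71.0, 301, 12.2 and 51.4 CPM in the KO and 12.1, 24.7 and 13.5 CPM in the control kidneys, with KO kidney 3 far above and KO kidney 4 among the controls. Its log2 fold change of 2.54 had a standard error of 0.83, and without KO kidney 3 it was 1.52. Reads that align equally well to Hspa1b, a near-identical copy of Hspa1a, were set apart as multimapping and are missing from these values. Hspb1 (0.94) and Hsp90aa1 (0.72) were likewise lowest among the KO kidneys in KO kidney 4, at 29.4 CPM for Hspb1 and 169.8 CPM for Hsp90aa1. The 4 members without overlap (10.8%, beside 4.75%) had smaller folds: Hspa4l (0.44), Hspa5, the chaperone of the endoplasmic reticulum (0.33), and, named after their values were seen, Dnaja4 (0.55) and Ahsa2 (0.25).

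**Figure D3:**
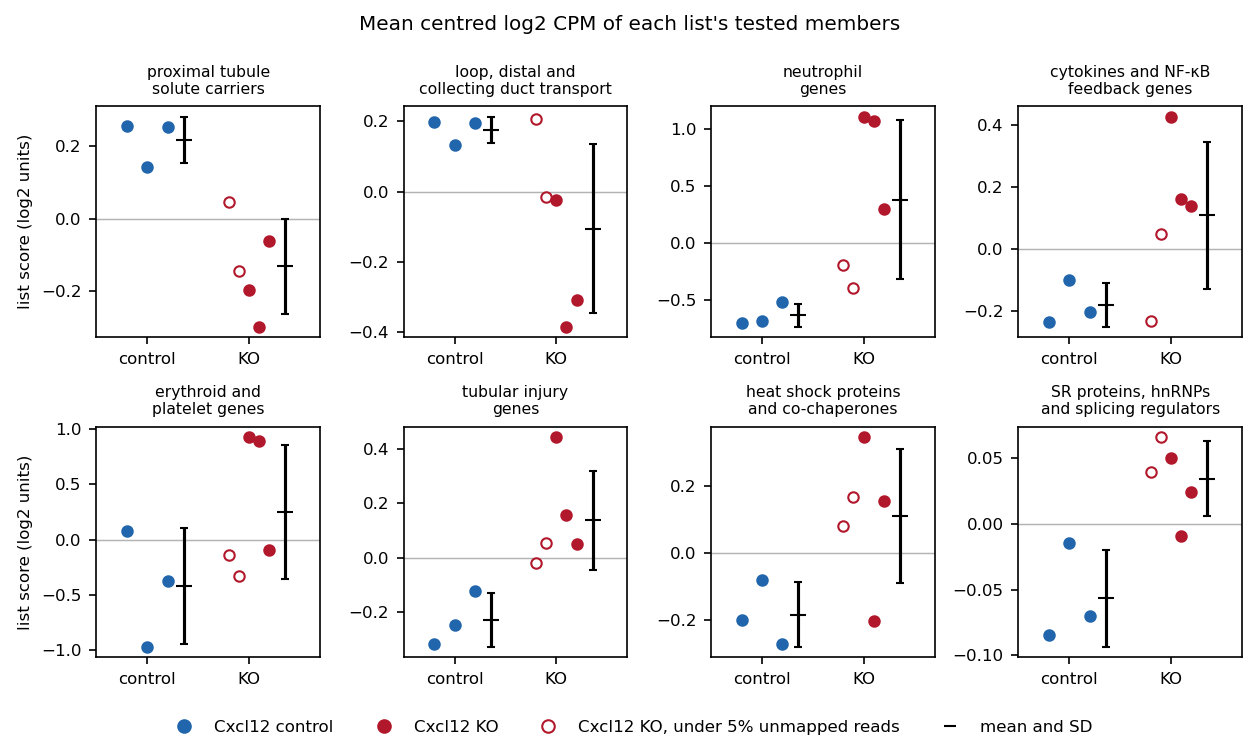
Mean centred log2 CPM over the tested members of 8 lists (vertical axes, log2 units) for each kidney, colours and marks as in the plot of single genes. The carrier score was lower in all 5 KO kidneys, the neutrophil score was highest in KO kidneys 3 and 4 (1.11 and 1.08), which also had the highest erythroid scores (0.93 and 0.89), and the heat shock score was as low in KO kidney 4 as in the controls.

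Genes of mRNA processing differed by small amounts. The core spliceosome and the snRNP proteins had 42 of 71 members above 0 and a median of 0.03. Although small, some of the differences were even across kidneys: 7 members did not overlap on the higher side (9.86%, beside 4.75%) and 1 on the lower side (1.41%, beside 4.88%). Snrpd1, a core Sm protein, was at 32.6, 30.2, 28.4, 26.0 and 25.6 CPM in the KO and 22.8, 24.1 and 20.9 CPM in the control kidneys (0.34, standard error 0.11), and Snrpa1, a protein of the U2 particle, at 39.8 to 45.0 against 33.9 to 37.4 CPM (0.24). Bud31, a factor of the active spliceosome, was at 0.23, and U2af1l4, a relative of the splice-site factor U2AF, was the 1 on the lower side (-0.21).

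Regulators of splicing, the SR proteins and hnRNPs among them, were above 0 in 69 of 85 cases with a median of 0.09, and 9 did not overlap on the higher side (10.6%, beside 4.75%). The member with the smallest p went the other way: Rbm47, an epithelial RNA-binding protein, was at 221, 226, 203, 203 and 217 CPM in the KO and 258, 281 and 283 CPM in the control kidneys (log2 fold change -0.36, standard error 0.08). It was the 1 member without overlap on the lower side (1.18%, beside 4.88%). Ptbp3, a polypyrimidine tract protein, was at 448, 375, 338, 325 and 295 CPM against 281, 264 and 263 CPM (0.40), and the highest values were those of KO kidneys 1 and 2. The SR kinase Clk1 (0.35) and the SR protein Srsf5 (0.24) overlapped. Factors of 3′ end formation, export and nonsense-mediated decay had 38 of 53 above 0 (median 0.08) and those of cytoplasmic mRNA decay 37 of 50 (median 0.10). Members without overlap were few in both, namely the poly(A)-binding protein Pabpc1 (0.17) and the export factor Thoc1 (0.19) in the first (3.77%) and Patl1, which links decapping to deadenylation (0.23), in the second (2%), beside 4.75% of all genes. The polyadenylation regulator Cpeb1 (0.39), the anti-proliferative deadenylation factor Btg1 (0.45) and the exosome subunit Exosc5 (-0.24) overlapped. With scaling by library total alone, which shifted the median of all genes to -0.06, the 4 medians were -0.03, 0.03, 0.02 and 0.04, so the direction of the spliceosome list turned and the others came nearer to 0.

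Genes of other resident cell types mostly overlapped. Endothelial genes had a median of 0.04, with Cdh5 (VE-cadherin, 0.45) and Esam (0.27) without overlap on the higher side (10%, beside 4.75%). Podocyte genes had a median of 0.05, with Clic5 (-0.29) the 1 without overlap (7.14%, beside 4.88%). Genes of mesangium, pericytes, smooth muscle and fibroblasts were lower in 19 of 23 cases (median -0.16), with Notch3 (-0.28) the 1 without overlap (4.35%, beside 4.88%), and Col1a1, the main fibrillar collagen, at 37.5, 42.0, 40.6, 43.6 and 24.6 CPM against 86.3, 57.6 and 42.2 CPM (-0.72). Control kidney 1 was highest for Col1a1, and without it the log2 fold changes of Col1a1 and Col6a1 were -0.40 and -0.38. Matrix genes went both ways. Of 58, 6 did not overlap on the higher side (10.3%, beside 4.75%) and 4 on the lower side (6.90%, beside 4.88%). Besides the neutrophil proteases, Mmp7 (1.04) was among the higher and Col6a1 (-0.62) among the lower ones. Timp3, an abundant inhibitor of metalloproteases, was at -0.32 with overlap. Kidney-defining genes (Umod, Kap, Slc34a1 and others) summed to 11013 to 14892 CPM in KO and 10861 to 16033 CPM in control kidneys, so the tissue label held in all 8.

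Fat genes split the KO kidneys. Adipoq was at 4.84, 0.152, 0.392, 0.277 and 0.124 CPM in the KO and 5.29, 3.52 and 1.69 CPM in the control kidneys, and Cfd (adipsin) at 27.9, 0.799, 1.33, 1.66 and 0.434 CPM against 27.5, 16.3 and 8.81 CPM. Plin1, which coats the fat droplet, was at 4.75, 0.228, 0.157, 0.222 and 0 CPM against 4.34, 3.19 and 0.784 CPM. For each of the 3 genes KO kidney 1 was near control kidney 1 and KO kidneys 2 to 5 lay below all controls. Their log2 fold changes were -1.52, -1.40 and -1.28, with standard errors from 0.92 to 1.04. Without KO kidney 1 alone they were -3.94, -4.07 and -4.05. Without KO kidneys 1 and 2 they were -3.74, -3.94 and -4.38, with edgeR adjusted p-values of 0.0334, 0.0237 and 0.0769. The adrenal genes Cyp11a1 and Cyp11b1 had 0 counts in every kidney. The part of fat tissue in the other results was not tested.

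The fit without KO kidneys 1 and 2 compared 3 KO with 3 control kidneys, and its log2 fold changes and edgeR adjusted p-values follow for the list members that passed besides Il6, Ptgs2, Adipoq and Cfd, given above (80 of all 14948 genes did, 0.535%). In the loop, distal and collecting duct list these were Bsnd (-1.50, adjusted p = 0.00752), Cldn19 (-0.96, adjusted p = 0.0171) and the potassium channels Kcnj1, through which the thick ascending limb recycles potassium (-1.49, adjusted p = 0.00689), and Kcnj10, a basolateral channel (-0.98, adjusted p = 0.0309), all 4 lower. Slc2a2 (-1.73, adjusted p = 0.0485) and the sodium-glucose carrier Slc5a1 (-1.11, adjusted p = 0.0309) were lower as well. On the higher side, 6 of 20 neutrophil genes passed, namely S100a8, S100a9, Mmp9, Retnlg, Il1r2 and Lcn2, with values from 1.02 for Lcn2 to 2.70 for Il1r2. The chemokines Cxcl3 (3.49, adjusted p = 0.0171) and Cxcl5 (2.05, adjusted p = 0.0303) passed, as did Cd14 (1.54, adjusted p = 0.0192), Sprr2f (adjusted p = 0.00689), Itgb3 (1.02, adjusted p = 0.0316) and the cytokine Il11 (1.28, adjusted p = 0.0143). Kcnj1, Kcnj10, Slc5a1 and Il11 are named after their values were seen. Cyp24a1 was at -2.18 in that fit (adjusted p = 0.0975).

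The Myc cohort, 5 KO and 5 control kidneys after the same operation, shares no kidney with this one, and its lists are set beside these for comparison. The carrier list had a median of 0.13 there, with 14 of 25 members above 0, and the loop, distal and collecting duct list a median of 0.11 with 26 of 36. The neutrophil list had a median of 0.65, with all 21 above 0, the cytokine list 0.38, the immediate-early list 0.42 and the heat shock list 0.03. The difference between the KO effects was tested gene by gene in edgeR over all 18 kidneys, where 11 of 15903 genes passed (0.0692%). Hlf and Flrt1 were among them, with log2 differences of -1.56 and -1.21 (edgeR adjusted p = 0.0135 and 0.0377). Of the list members, 1 passed, Myc, the gene deleted in the other cohort. No single carrier, channel, inflammatory or mRNA processing gene of the lists passed, so a difference of their KO effects between the cohorts was not shown.

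**Figure D4:**
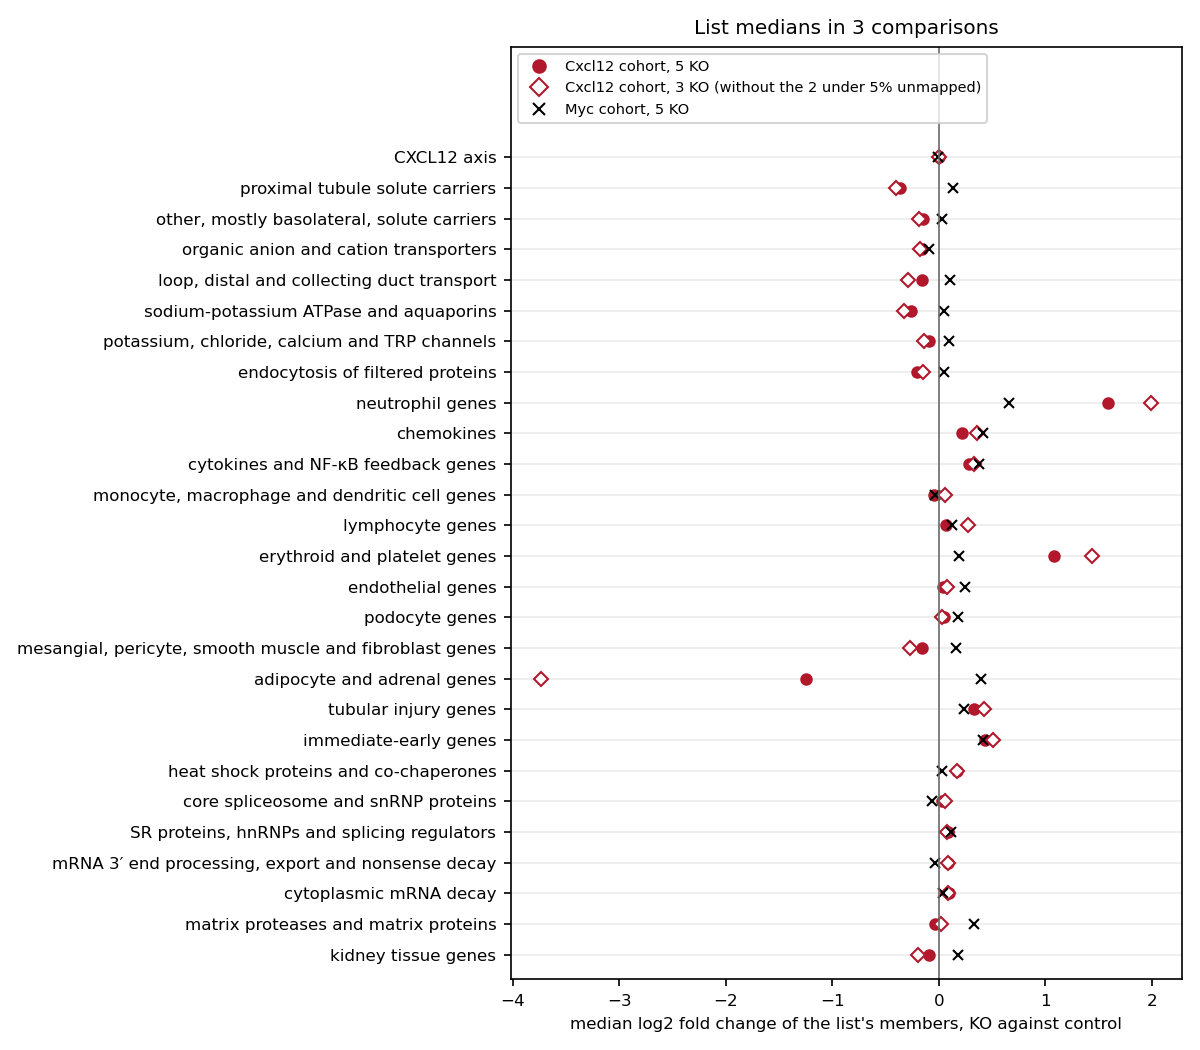
Median log2 fold change of the tested members (horizontal axis) of each list (rows), for the 5 KO kidneys of the Cxcl12 cohort (filled circles), the 3 KO kidneys left without the 2 under 5% unmapped reads (open diamonds) and the Myc cohort (crosses). The carrier median lay at -0.36 and -0.40 in the Cxcl12 cohort and 0.13 in the Myc cohort, the neutrophil median at 1.58, 2.00 and 0.65, and the fat and adrenal median moved most, from -1.25 to -3.73.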

How the data were processed

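RNA came from whole snap-frozen kidneys. The authors trimmed reads with Trimmomatic 0.32, aligned them with STAR 2.4.0 and deposited raw read counts per gene. The annotation release and strand setting are not given in the sources used here, and gene names came from GENCODE M21 (GRCm38). The column of counts used ignores strand, so a gene and its antisense partner cannot be told apart.

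Groups follow the genotype labels (5 KO, 3 control). The labels do not name the animal of each kidney, so p-values measure only the spread between these kidneys. Genes were filtered by expression, normalised by TMM, and the quasi-likelihood test of edgeR 4.0.16 (R 4.3.3) was run with Benjamini-Hochberg adjustment over 15154 genes. The test was tried on simulated counts that had the same dispersion for every gene, which real kidneys need not follow. It found 66 of 98 changes of 1 and 102 of 102 changes of 2 on the log2 scale, with 10 false calls. Named genes were Cxcl12 and its receptors, the 12 higher and 12 lower protein-coding genes of smallest p among those without overlap and with a mean of at least 1 CPM, up to 5 list members of smallest p and 3 of highest CPM, members whose effect differed between cohorts, and defining markers near 0; a few genes that this rule names are not reported here. Members and lists were chosen with earlier results of these data known. Alternatives were DESeq2 1.42.0, limma-voom (limma 3.58.1), other scalings and filters, a replicate block, all 18 kidneys, thinned counts, and leaving out kidneys. Promoters and motifs used RefSeq sequences.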

Additional observations from a re-analysis of the deposited data

Results flagged for a closer look

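In 166 groups of KO kidneys tested for a kidney far from the others, 10 were flagged, and chance flags about 1 in 20 groups. KO kidney 1 stood above the other KO kidneys for 3 fat genes, Adipoq (4.84 CPM), Cfd (27.9 CPM) and Plin1 (4.75 CPM), and for the score of the fat and adrenal list (1.49). It also stood above them for Slc12a2 (167 CPM) and below them for the score of the core spliceosome list (-0.063). KO kidney 3 stood above the others for Hspa1a (301 CPM), Fosb (22.6 CPM) and the score of the lymphocyte list (0.57), which rests on 5 genes with few counts. KO kidney 2 stood above the others for Ahsa2 (19.5 CPM).

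The KO effect differed between the Cxcl12 and Myc cohorts by the interaction test over all 18 kidneys for Flrt1 (-1.21), Hlf (-1.56) and Myc (1.83), as log2 differences of the Cxcl12 effect minus the Myc effect. Myc is the gene deleted in the other cohort.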

How the results depend on the processing

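Of 2621 pairs of a followed gene (138 genes) and an alternative, 2613 kept the direction, and 212 pairs, in 73 genes, passed an adjusted p of 0.05 where the main test did not. Of 532 pairs of a list median (28 followed) and an alternative, 518 moved by less than 1 SD between kidneys. The cause of the other shifts was not tested.

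The number of called genes, 0 in edgeR, was 17 with library total scaling, 214 with no filter, 355 with DESeq2, 25 with all 18 kidneys, 19 with all 18 and a term for under 5% unmapped reads, 80 without KO kidneys 1 and 2, 13 after thinning to the smallest total, and 0 to 15 leaving out 1 kidney (15 without KO kidney 1, 9 without KO kidney 2, 3 without control kidney 3). The count without overlap, 1460, was 2877 without KO kidneys 1 and 2 and 1771 to 2449 leaving out 1 kidney, where fewer kidneys make overlap rarer. The 11 interaction calls became 133 with the unmapped-read term, 3 with limma-voom and 1 to 27 leaving out 1 kidney. Cxcl12 passed with no filter (-0.73, adjusted p = 0.0110) and in DESeq2 (-0.73, adjusted p = 0.00191).

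With library total scaling the median of all genes was -0.056, channels -0.15, core spliceosome -0.033, splicing regulators 0.030, 3′ end formation 0.024 and decay 0.041. The fat and adrenal median was -2.82 with limma-voom, -3.73 without KO kidneys 1 and 2, -2.39 with all 18 and the term, and -4.00 to -0.69 leaving out 1 kidney. Endocytosis was -0.079 with all 18 and the term. The replicate block gave -0.10 for the CXCL12 axis, 0.13 for splicing regulators, 0.030 for 3′ end formation and 0 called genes. Deviations of same-numbered kidneys of the 2 genotypes correlated with a mean r of 0.068 (from -0.035 to 0.14), beside -0.017 for different numbers. Control kidneys 1 and 2 were most like the KO kidney of their number (r 0.097 and 0.14), and control kidney 3 was most like KO kidney 5 (r 0.21). The numbers were not taken as pairs in the main test.

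Havcr1 changed sign with limma-voom (-0.083), without KO kidneys 1 and 2 (-0.042) and with the block (-0.30), Slc20a2 with the block (-0.0033) and Umod with the block (0.054). Leaving out 1 kidney gave -0.072 (without KO kidney 4) to 0.33 for Havcr1, -0.014 (without KO kidney 5) to 0.18 for Slc20a2 and -0.21 to 0.0081 (without control kidney 3) for Umod. Depth was at least 12968383 reads on genes, and genes under the filter, such as Ly6g and most lymphocyte genes, were not detectable as different at this depth.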
